A study of Sus scrofa with 14 samples.

Results

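The muscle actins and the smooth muscle and mural cell markers of the pig heart slice were described from an RNAseq table of 14 libraries. The genes were taken by name from the table: the striated actins ACTA1 and ACTC1, the smooth muscle actins ACTA2 and ACTG2, the smooth muscle contractile genes MYH11, TAGLN, CNN1 and LMOD1, and the mural cell genes RGS5 and PDGFRB. All 10 of these genes have an entry among the 13644 genes of the table. Of them 9 were found by the name in the table and 1, ACTA1, by its gene identifier (ENSSSCG00000010190) through the reference names, since that entry carries no name. A total of 9 passed the filter of at least 1 FPKM in at least 2 libraries, and MYH11 did not.

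The slices were cut at 300 µm from the left ventricle of pig hearts. MT slices (n = 2 libraries) were kept in the CTCM, which delivers pacing pulses and a stretch by air pressure to each slice, with 100 nM of the thyroid hormone T3 and 1 µM of dexamethasone (Dex), a synthetic glucocorticoid. MC slices (n = 2) were kept in the CTCM with no T3/Dex, TD slices (n = 4) in static culture with electrical stimulation and T3/Dex at the same doses, and Ctrl slices (n = 4) in that static culture alone. D0 slices (n = 2) were fresh. Culture lasted 12 days by the labels. The label of MT-2 writes T4 where the other T3/Dex libraries have T3, and the treatment entry names T3/Dex for every sample, so groups follow the titles. The pig behind each library is not given in the sources used here, so p-values reflect only how far these samples spread, and that spread may be technical. Values are FPKM, reads scaled by gene length and by mapped reads, so levels of different genes can be compared per length.

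Muscle cells build their thin filaments from tissue-specific actins that differ in few residues. ACTC1, cardiac alpha-actin, is the main actin of the adult cardiomyocyte sarcomere, and ACTA1, skeletal alpha-actin, is also made in the heart. ACTA2 (smooth muscle alpha-actin) and ACTG2 (smooth muscle gamma-actin) belong to smooth muscle of vessels and hollow organs, and ACTA2 and TAGLN are also made by activated fibroblasts. Many of these genes are transcribed through CArG boxes, sites of serum response factor (SRF) that lie near their start, with the coactivators myocardin and MRTF.

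CArG-like sequences, CCNNNNNNGG with at least 5 of the 6 middle bases A or T, were searched in the 250 bases before the start of each RefSeq gene on Sscrofa11.1. The motif was looked for on each strand, and it overlaps no other motif searched. It was found in 5 of the 10 genes, among them ACTA1, ACTC1, ACTA2 and ACTG2, and in 7% of the 19556 promoters scanned. A full CArG box, with 6 of 6 A or T, was found in 2 of the 10 genes, ACTA1 among them, and in 1.32% of promoters. The sequences of the 2 striated actins and of ACTA2 are shown because these genes, which share the motif, had different levels across the cultures. Capitals mark the matches, and each sequence is written 5′ to 3′ on the strand of its gene. Only bases before the outermost annotated start are shown. For ACTA1 the window lies inside the annotated gene span, so only 30 bases around its full box are shown.
ACTA1: tgcccaacacCCAAATATGGctcgagaagg
ACTC1: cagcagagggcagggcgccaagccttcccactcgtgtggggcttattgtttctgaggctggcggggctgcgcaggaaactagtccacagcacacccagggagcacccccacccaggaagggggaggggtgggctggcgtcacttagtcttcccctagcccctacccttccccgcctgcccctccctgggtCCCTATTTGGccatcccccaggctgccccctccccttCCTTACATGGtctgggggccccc
ACTA2: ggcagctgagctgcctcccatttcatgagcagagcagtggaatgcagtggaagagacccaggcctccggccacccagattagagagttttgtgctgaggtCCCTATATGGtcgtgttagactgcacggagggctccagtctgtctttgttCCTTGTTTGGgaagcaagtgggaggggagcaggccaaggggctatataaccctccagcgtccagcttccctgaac
They lie at chr14:60412837-60412866 on the plus strand (ACTA1), chr1:136280869-136281118 on the plus strand (ACTC1) and chr14:100886733-100886957 on the minus strand (ACTA2). Distances are counted from the start of the RefSeq transcript used. ACTA1 has 3 matches, whose first bases lie 222, 176 and 95 bases before the start, and the nearest is a full box. ACTC1 has matches 60 and 23 bases before its start, and ACTA2 150 and 100. A match is a description of letters and not a test of binding.

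Both striated actins were low in static culture and high in the CTCM with T3/Dex. ACTA1 (chromosome 14, 60412651 to 60415687, plus strand, the RefSeq gene span on Sscrofa11.1, as for the other genes) had 14.8 and 26.8 FPKM in MT, 2.72 and 7.71 in MC, 1.67, 1.05, 0.353 and 1.06 in TD, 1.21, 1.53, 0.857 and 0.679 in Ctrl and 24.7 and 17.1 in D0. MT and D0 overlapped, and MC lay between them and the static slices with no overlap on either side. Against D0, ACTA1 fell by 3.40 in Ctrl on the log2(FPKM + 1) scale (standard error 0.36, adjusted p = 6.77e-05 from limma), by 3.45 in TD (standard error 0.36, adjusted p = 2.83e-05 from limma) and by 1.92 in MC (standard error 0.41, adjusted p = 0.00688 from limma). In MT it differed from D0 by -0.04 (95% interval -0.93 to 0.85, adjusted p = 0.954 from limma). The MC call was lost without D0-1 (adjusted p = 0.0827), without MC-1 (0.0593) and in a fit of MC and D0 alone (0.0538).

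ACTC1 (ENSSSCG00000004803, chromosome 1, 136281119 to 136286551, plus strand) had a similar order at lower levels. It had 7.78 and 8.28 FPKM in MT, 0.161 and 3.04 in MC, 0.148, 0.149, 0.205 and 0.0343 in TD, 0.274, 0.269, 0.145 and 0.235 in Ctrl and 6.22 and 3.15 in D0. The MT libraries were above both D0 libraries, and the MC pair was split, with MC-1 inside the range of the static slices and MC-2 just under D0-2. In whole reads, solved from the steps of FPKM, ACTC1 had 197 and 139 reads in MT, 4 and 48 in MC and 1 to 10 in the static libraries, against 209 and 96 in D0. ACTC1 fell by 2.15 in Ctrl (standard error 0.36, adjusted p = 0.00207 from limma) and by 2.27 in TD (standard error 0.36, adjusted p = 0.000814 from limma). In MC it fell by 1.34 (standard error 0.42, adjusted p = 0.0434 from limma), a call lost without any 1 of the D0, Ctrl and TD libraries or MC-1 (adjusted p 0.0514 to 0.305) and with a replicate block (0.0871). The MC pair set its size, with log2 fold changes of -0.44 without MC-1 and -2.24 without MC-2. The Ctrl call was lost without D0-1 (0.0641). In MT the log2 fold change was 0.72 against D0 (95% interval -0.18 to 1.63, adjusted p = 0.214 from limma), and it passed without MC-1 (0.036) or MC-2 (0.0352).

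Compared directly with the other cultures, MT had more of both striated actins. ACTA1 was higher in MT than in Ctrl by 3.36 (standard error 0.36, adjusted p = 0.000123 from limma) and than in TD by 3.41 (standard error 0.36, adjusted p = 0.000258 from limma). ACTC1 was higher in MT than in Ctrl by 2.88 (standard error 0.36, adjusted p = 0.000383 from limma) and than in TD by 3.0 (standard error 0.36, adjusted p = 0.000525 from limma). Against MC the differences were 1.88 for ACTA1 (standard error 0.41, adjusted p = 0.0266 from limma) and 2.06 for ACTC1 (standard error 0.42, adjusted p = 0.0184 from limma). The MC comparison is the least firm of these: without MC-1 the adjusted p was 0.182 for ACTA1 and 0.0622 for ACTC1, whose difference was then 1.16, without MT-2 0.0866 for ACTA1, and in a fit of MT and MC alone 0.806 and 0.926. With limma arrayWeights the call of ACTA1 over TD (0.0557) and those of ACTC1 over Ctrl (0.109) and TD (0.185) were lost too.

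The CTCM without T3/Dex and T3/Dex in static culture had smaller values than their combination. ACTA1 was higher in MC than in Ctrl by 1.48 (standard error 0.36, adjusted p = 0.032 from limma), which was lost without MC-2 (log2 fold change 0.87, adjusted p = 0.32), Ctrl-1 (0.0728), Ctrl-3 (0.081) or Ctrl-4 (0.0718). ACTC1 differed by 0.82 between MC and Ctrl (adjusted p = 0.159 from limma, and 0.00999 without MC-1). T3/Dex in static culture gave differences from Ctrl of -0.05 for ACTA1 (95% interval -0.68 to 0.58) and -0.12 for ACTC1 (95% interval -0.76 to 0.52). The interaction of CTCM and T3/Dex, the T3/Dex difference in the CTCM minus that in static culture, was 1.93 for ACTA1 (standard error 0.51, adjusted p = 0.048 from limma) and 2.18 for ACTC1 (standard error 0.51, adjusted p = 0.0302 from limma). Leaving out 1 library ended the call of ACTA1 in 11 of 14 cases (adjusted p 0.0634 to 0.186) and that of ACTC1 in 6 (0.0526 to 0.0599). The value of ACTC1 was 1.28 without MC-1 and 3.08 without MC-2, and that of ACTA1 1.32 and 2.54. The part of the split MC pair in both values was not tested.

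**Figure D1:**
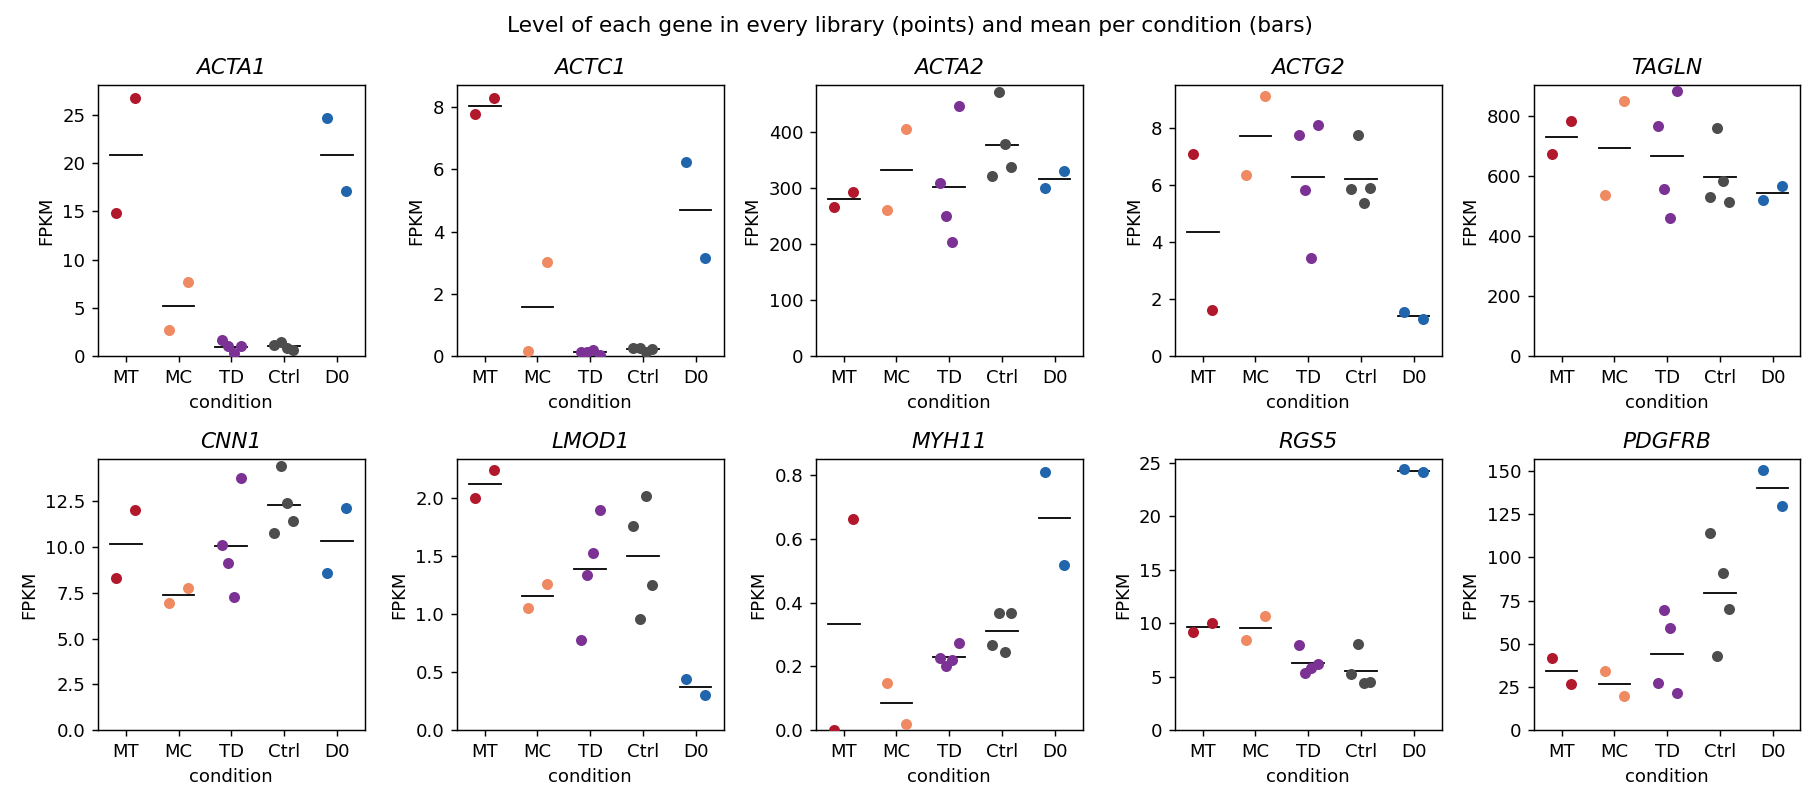
FPKM of the 10 genes in every library (points) with the mean of each condition (bars), on linear axes from 0, for MT, MC, TD, Ctrl and D0. ACTA1 and ACTC1 are near 0 in TD and Ctrl and high in MT and D0, while ACTA2 stays between 204 and 471 FPKM in all 14 libraries.

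ACTA2 (ENSSSCG00000010447, chromosome 14, 100868145 to 100886732, minus strand) was the most abundant of the muscle actins in every library, and against D0 it passed in no culture in the fit of all 14 libraries with no covariate. It had 267 and 294 FPKM in MT, 261 and 405 in MC, 309.9, 251, 204 and 447 in TD, 322, 471, 379 and 338 in Ctrl and 302 and 331 in D0. Both MT libraries were under both D0 libraries and all Ctrl libraries by a small margin, and the other groups overlapped D0. The log2 fold changes against D0 were -0.17 in MT (95% interval -0.89 to 0.55), 0.04 in MC (-0.68 to 0.76), -0.12 in TD (-0.75 to 0.50) and 0.24 in Ctrl (-0.38 to 0.86), with adjusted p of 0.723, 0.949, 0.842 and 0.835 from limma. Against Ctrl, ACTA2 gave -0.41 in MT (adjusted p = 0.3 from limma), which passed at -0.86 after rescaling to TPM (0.00688), where the median of all genes was -0.53, and at -0.71 after quantile normalization (0.0188), where it was 0.04. With the summed FPKM of a library as a covariate, chosen after seeing the data, ACTA2 was lower in MT than in D0 (-0.67, adjusted p = 0.046 from limma) and than in Ctrl (-1.02, 0.0146), and lower in TD than in Ctrl (-0.59, 0.0401).

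ACTG2 (ENSSSCG00000008294, chromosome 3, 69097366 to 69121542, minus strand), scarce in the fresh slice, rose in MC, TD and Ctrl. It had 7.08 and 1.63 FPKM in MT, 6.34 and 9.11 in MC, 7.75, 5.84, 3.45 and 8.08 in TD, 5.87, 7.74, 5.35 and 5.89 in Ctrl and 1.57 and 1.29 in D0. Every cultured library was above both fresh ones, and only MT-2 was near them. ACTG2 rose by 1.83 in MC (standard error 0.44, adjusted p = 0.0129 from limma), by 1.53 in TD (standard error 0.38, adjusted p = 0.016 from limma) and by 1.56 in Ctrl (standard error 0.38, adjusted p = 0.021 from limma). In MT the value was 0.92 (adjusted p = 0.136 from limma), and the MT pair decided it: adjusted p was 0.00594 without MT-2, and without MT-1 ACTG2 was lower in MT than in MC (0.00842), TD (0.0106) and Ctrl (0.00758). The 3 calls were lost without D0-1 (0.07 to 0.139) or D0-2 (0.0876 to 0.202), and that in MC also without MC-2 (0.102).

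The actin makeup of the slice differed at its striated end. ACTA1 and ACTC1 together made 7.62% and 10.6% of the FPKM of the 4 muscle actins in MT, 1.07% and 2.53% in MC, 0.24% to 0.569% in TD, 0.26% to 0.451% in Ctrl and 9.25% and 5.73% in D0. ACTA2 held 88.9% to 98.4% of that sum in all libraries, also in D0, where it held 90.3% and 93.9%. Together with the cytoplasmic actins ACTB and ACTG1, of which ACTG1 was the most abundant, the 4 muscle actins made 8.61% to 14.6% of the FPKM of all 6 actins. Coding sequences of the muscle actins are 84.5% to 87.0% identical in RefSeq, with identical runs of up to 45 bases, so reads may be shared between them, and how such reads were counted is not given in the sources used here. In bulk libraries, fewer cells of a type and less RNA per cell cannot be told apart.

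**Figure D2:**
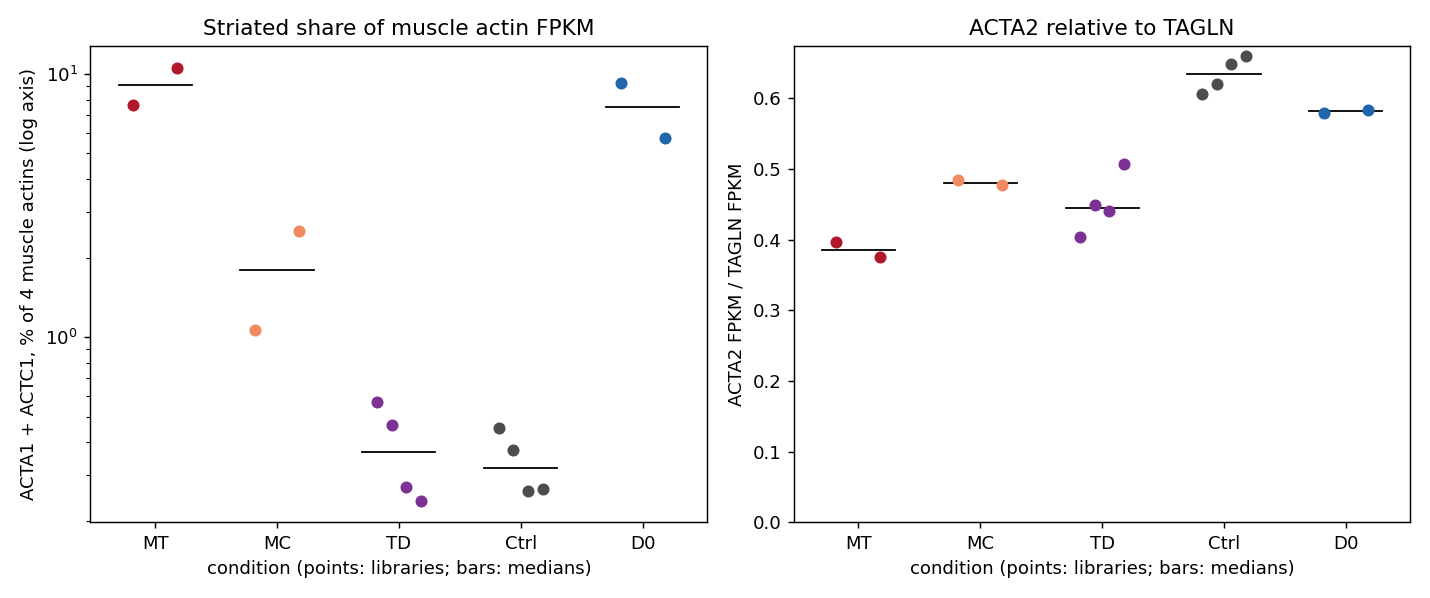
Left, ACTA1 and ACTC1 as a percentage of the FPKM of the 4 muscle actins (log axis), and right, ACTA2 FPKM divided by TAGLN FPKM (linear axis from 0), per library (points) with condition medians (bars). MT and D0 lie at 5.73% to 10.6% on the left, MC at 1.07% and 2.53% and the static slices at 0.24% to 0.569%.

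TAGLN (ENSSSCG00000015073, chromosome 9, 44561756 to 44567385, plus strand), the actin-binding protein transgelin, was the most abundant of the 10 genes, and it passed in no comparison in the fit of all 14 libraries with no covariate. It had 674 and 783 FPKM in MT, 539 and 850 in MC, 766, 559, 462 and 882 in TD, 530.2, 759, 584 and 512 in Ctrl and 520.0 and 568 in D0. Both MT libraries were above both D0 libraries and the other groups overlapped D0. The summed FPKM of all genes was also higher in MT (412404 and 457496) than in D0 (350763 and 322973). Over the 14 libraries TAGLN had Pearson r = 0.87 with it on the log2 scale, and its part in the order of MT and D0 was not tested. Its log2 fold changes against D0 were 0.42 in MT (95% interval -0.29 to 1.13), 0.32 in MC, 0.25 in TD and 0.12 in Ctrl, with adjusted p of 0.361 to 0.951 from limma. TAGLN and ACTA2 did not keep one ratio. ACTA2 over TAGLN was 0.396 and 0.375 in MT, 0.484 and 0.477 in MC, 0.405 to 0.507 in TD, 0.607 to 0.660 in Ctrl and 0.580 and 0.583 in D0, so every library with stretch or T3/Dex was under every Ctrl and D0 library. This ratio was chosen after its values were seen and has no test.

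CNN1 (ENSSSCG00000013614, chromosome 2, 70183370 to 70190756, plus strand), basic calponin of smooth muscle, had 8.28 and 12.0 FPKM in MT, 6.96 and 7.76 in MC, 10.1, 9.09, 7.26 and 13.7 in TD, 10.8, 14.4, 12.4 and 11.4 in Ctrl and 8.57 and 12.1 in D0. The MC pair was under both D0 libraries and all Ctrl libraries. The difference of MC from Ctrl was -0.66 (95% interval -1.16 to -0.16, adjusted p = 0.0938 from limma), which passed at -1.01 after rescaling to TPM (0.0228, with all genes at a median of -0.33) and in a fit of MC and Ctrl alone (0.0311). After rescaling to TPM, CNN1 was also lower in MT than in Ctrl (-0.71, adjusted p = 0.0305 from limma), where the median of all genes was -0.53. Without rescaling that difference was -0.26 (0.413). Against D0 the adjusted p was 0.286 in MC and 0.761 to 0.952 in the other cultures.

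LMOD1 (ENSSSCG00000031201, chromosome 10, 24165293 to 24194823, minus strand), leiomodin of smooth muscle, which nucleates actin filaments, rose in MT, TD and Ctrl at a low level. It had 2.00 and 2.24 FPKM in MT, 1.05 and 1.26 in MC, 0.781, 1.34, 1.53 and 1.89 in TD, 1.76, 0.959, 2.02 and 1.25 in Ctrl and 0.445 and 0.302 in D0. Every cultured library was above both fresh libraries. LMOD1 reached 1 FPKM in 10 libraries, all of them cultured, and had 39 and 24 reads in D0. It passed the filter only through the groups where it was high, so its rise against D0 is not independent of the filter. LMOD1 rose by 1.18 in MT (standard error 0.25, adjusted p = 0.0044 from limma), by 0.78 in TD (standard error 0.22, adjusted p = 0.03 from limma) and by 0.84 in Ctrl (standard error 0.22, adjusted p = 0.0283 from limma), and in MC its value was 0.65 (adjusted p = 0.0899 from limma). The MT call kept its side when any 1 library was left out and was lost with limma arrayWeights (0.108), while the TD call was lost without D0-1 (0.14), D0-2 (0.246), TD-2 (0.0506), TD-3 (0.0617) or TD-4 (0.0741). The Ctrl call was lost without D0-1 (0.155), D0-2 (0.279), Ctrl-1 (0.0727), Ctrl-3 (0.0839) or Ctrl-4 (0.0501).

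MYH11 (ENSSSCG00000000146, chromosome 3, 7002667 to 7143093, plus strand), the myosin heavy chain that defines differentiated smooth muscle, was under 1 FPKM in all 14 libraries and was not tested with the other genes. It had 0 and 0.663 FPKM in MT, 0.147 and 0.021 in MC, 0.227, 0.202, 0.219 and 0.273 in TD, 0.267, 0.366, 0.246 and 0.368 in Ctrl and 0.810 and 0.517 in D0. These values are 0 and 67 reads in MT, 22 and 2 in MC, 37 to 49 in TD, 41 to 82 in Ctrl and 164 and 95 in D0. All libraries but MT-2 were under both D0 libraries. The 0 of MT-1 is given as listed: in MT 6.63% and 9.83% of the genes with an expectation of at least 20 reads have a listed value of 0, against at most 0.416% in any other library. Without the filter, MYH11 was lower in MC by 0.61 (adjusted p = 0.0405 from limma, with a log2 fold change of -0.61) and did not pass in MT (0.164), TD (0.105) or Ctrl (0.281).

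Of the mural cell genes, RGS5 fell in all 4 cultures and PDGFRB in 3 of them. RGS5 (ENSSSCG00000037821, chromosome 4, 87286953 to 87340816, plus strand), a regulator of G protein signalling that marks pericytes, had 9.20 and 10.1 FPKM in MT, 8.41 and 10.7 in MC, 7.96, 5.32, 5.79 and 6.23 in TD, 5.22, 8.09, 4.44 and 4.48 in Ctrl and 24.4 and 24.1 in D0. No cultured library came near the fresh ones. RGS5 fell by 1.25 in MT (standard error 0.25, adjusted p = 0.00315 from limma), by 1.27 in MC (standard error 0.25, adjusted p = 0.00412 from limma), by 1.80 in TD (standard error 0.22, adjusted p = 9.96e-05 from limma) and by 1.98 in Ctrl (standard error 0.22, adjusted p = 9.09e-05 from limma). The last 3 of these calls held under every alternative run, and that in MT was lost with limma arrayWeights (0.0545). RGS5 was higher in MT than in Ctrl by 0.73 (standard error 0.22, adjusted p = 0.0298 from limma), and this call was lost after rescaling to TPM (0.194) and without Ctrl-1 (0.0674), Ctrl-3 (0.0771), Ctrl-4 (0.07) or MT-2 (0.107). It was also lost with a replicate block (0.59, adjusted p = 0.127 from limma) and with the summed FPKM as a covariate (0.37, 0.306). MC gave 0.71 over Ctrl (adjusted p = 0.0652 from limma), which passed without Ctrl-2 (0.021), MT-1 (0.0455) or MT-2 (0.0455).

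PDGFRB (ENSSSCG00000022741, chromosome 2, 151155753 to 151192818, minus strand), the receptor of PDGF-B on pericytes, smooth muscle and fibroblasts, had 41.8 and 26.8 FPKM in MT, 34.3 and 19.7 in MC, 27.5, 69.6, 59.0 and 21.4 in TD, 114, 42.7, 91.2 and 70.0 in Ctrl and 151 and 129 in D0. Every cultured library was under both fresh libraries. PDGFRB fell by 2.03 in MT (standard error 0.54, adjusted p = 0.0151 from limma), by 2.38 in MC (standard error 0.54, adjusted p = 0.00934 from limma) and by 1.80 in TD (standard error 0.47, adjusted p = 0.0209 from limma), and in Ctrl its value was -0.89 (adjusted p = 0.368 from limma). The calls rest on few libraries: that in MT was lost without D0-1 (0.0928), D0-2 (0.0616) or MT-2 (0.0812), that in MC without D0-1 (0.0774) or MC-2 (0.0915), and that in TD without D0-1 (0.18), D0-2 (0.112) or TD-1 (0.0521). The MT call was also lost with limma arrayWeights (0.116), and the TD call after rescaling to TPM (0.0702). Against Ctrl, PDGFRB gave -1.13 in MT (adjusted p = 0.0936 from limma) and -1.49 in MC (0.0721), and without Ctrl-2 both passed (0.0439 and 0.0461).

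The spread of PDGFRB and TAGLN within a condition went with the libraries. In Ctrl-2, TD-1, TD-4, MC-2 and MT-2, long genes were low relative to short ones, with values of -0.34 to -0.142 for the median log2 deviation of 2506 long genes minus that of 2052 short genes, against 0.0151 to 0.189 in the other 9 libraries. The same 5 libraries had the lowest PDGFRB and the highest TAGLN of their conditions. Over the 14 libraries Pearson r with this balance was 0.68 for PDGFRB and -0.93 for TAGLN, as a description, since libraries share conditions. With the balance as a covariate, chosen after seeing the data, PDGFRB was lower than in D0 in MT (-1.83, adjusted p = 0.000411 from limma), MC (-2.09, 0.000282), TD (-1.42, 0.0013) and Ctrl (-0.87, 0.0267). In that fit ACTA2 was lower in MT than in Ctrl (-0.51, adjusted p = 0.00852 from limma) and lower in TD than in Ctrl (-0.57, 0.00865), and TAGLN was higher in MT than in D0 (0.31, 0.0449). CNN1 was lower in MC than in D0 (-0.54, adjusted p = 0.045 from limma) and than in Ctrl (-0.77, 0.00949), with an interaction of 0.86 (0.0355). RGS5 was higher in MT than in TD (0.61, 0.0219) and in MC than in Ctrl (0.63, 0.0269), and PDGFRB was lower than in Ctrl in MT (-0.96, 0.00829) and MC (-1.22, 0.00783). The falls of PDGFRB from D0 in MT, MC and TD also passed in the fit with no covariate. The other calls given here did not pass in that fit, and some of them passed under other alternatives.

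**Figure D3:**
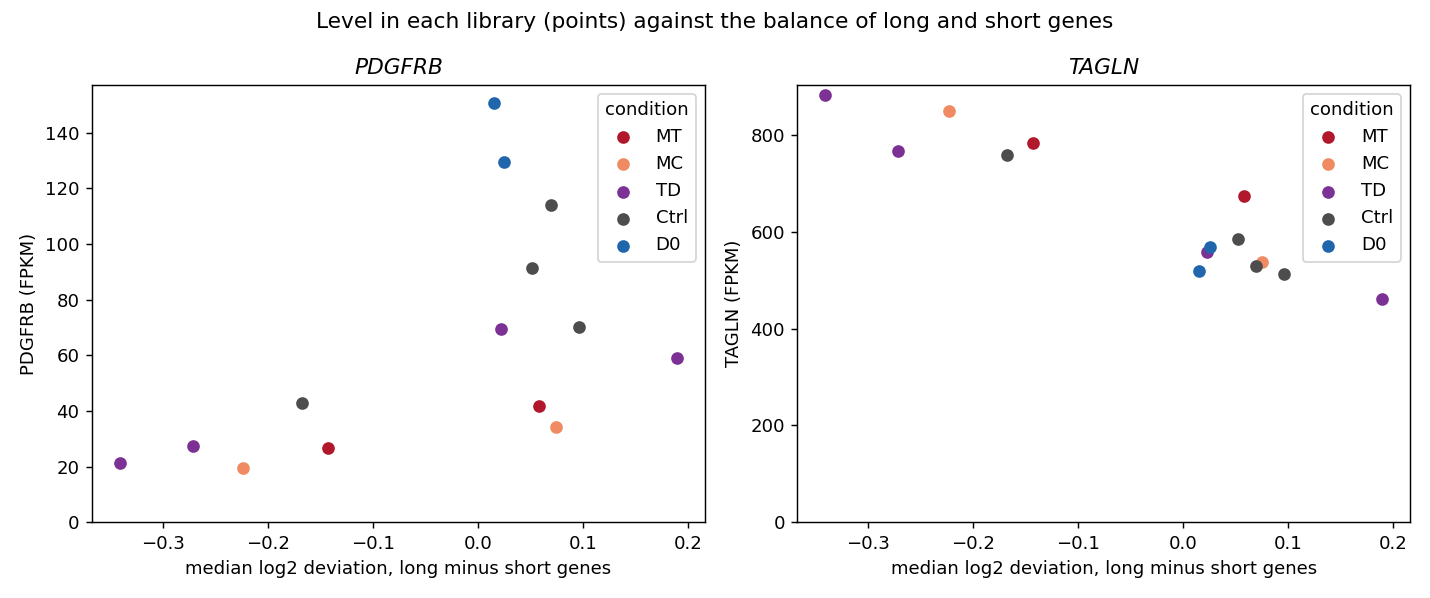
FPKM of PDGFRB (left) and TAGLN (right) in each library, with linear axes from 0, against the median log2 deviation of long genes minus that of short genes. The 5 libraries at -0.34 to -0.142 hold PDGFRB of 19.7 to 42.7 FPKM and TAGLN of 759 to 882 FPKM.

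By count, 3 of the 9 tested genes changed against D0 in MT, where 27.5% of all tested genes did. LMOD1, which passed the filter only through cultured libraries, was the 1 that rose (9.38% of all genes rose), and RGS5 and PDGFRB were the 2 that fell (18.1% fell). Of the genes expected at 20 reads or more, MT lists 6.63% and 9.83% at 0, against at most 0.416% in any other library, and the part of these values in the MT shares was not tested. In MC 5 of 9 changed, against 17.6% of all genes, with 1 higher (6.34% of all genes) and 4 lower (11.3%). In TD 6 of 9 changed, against 13.9%, with 2 higher (5.01%) and 4 lower (8.9%), and in Ctrl 5 of 9, against 8.45%, with 2 higher (3.5%) and 3 lower (4.95%). Without D0-1 these counts were 1 in MC, 3 in TD and 2 in Ctrl, and without D0-2 they were 3 in each. The share of all genes called was also lower in these fits, at 6.37% and 7.42% in MC, 5.87% and 6.31% in TD and 3.01% and 3.24% in Ctrl. Among the cultures every call was higher in the first-named group. There were 2 in MT against MC, where 3.19% of all genes were called and 0.885% higher, and 2 in MT against TD, with 10.1% and 2.99%. There were 3 in MT against Ctrl, with 23.1% and 7.95%, and 1 in MC against Ctrl, with 6.45% and 2.3%. In TD against Ctrl limma called 0 of the 9 and 3.48% of all genes, and 1 of the 9, PDGFRB, had an unadjusted p under 0.05. The interaction was called for 2 of 9, both positive, against 4.67% of all genes and 2.06% positive. The comparisons with D0 share the same 2 fresh libraries. The median log2 fold change of the 9 genes was -0.03 in MT, -0.42 in MC, -0.12 in TD and 0.12 in Ctrl, beside -0.11, -0.05, -0.02 and -0.02 over all genes.

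**Figure D4:**
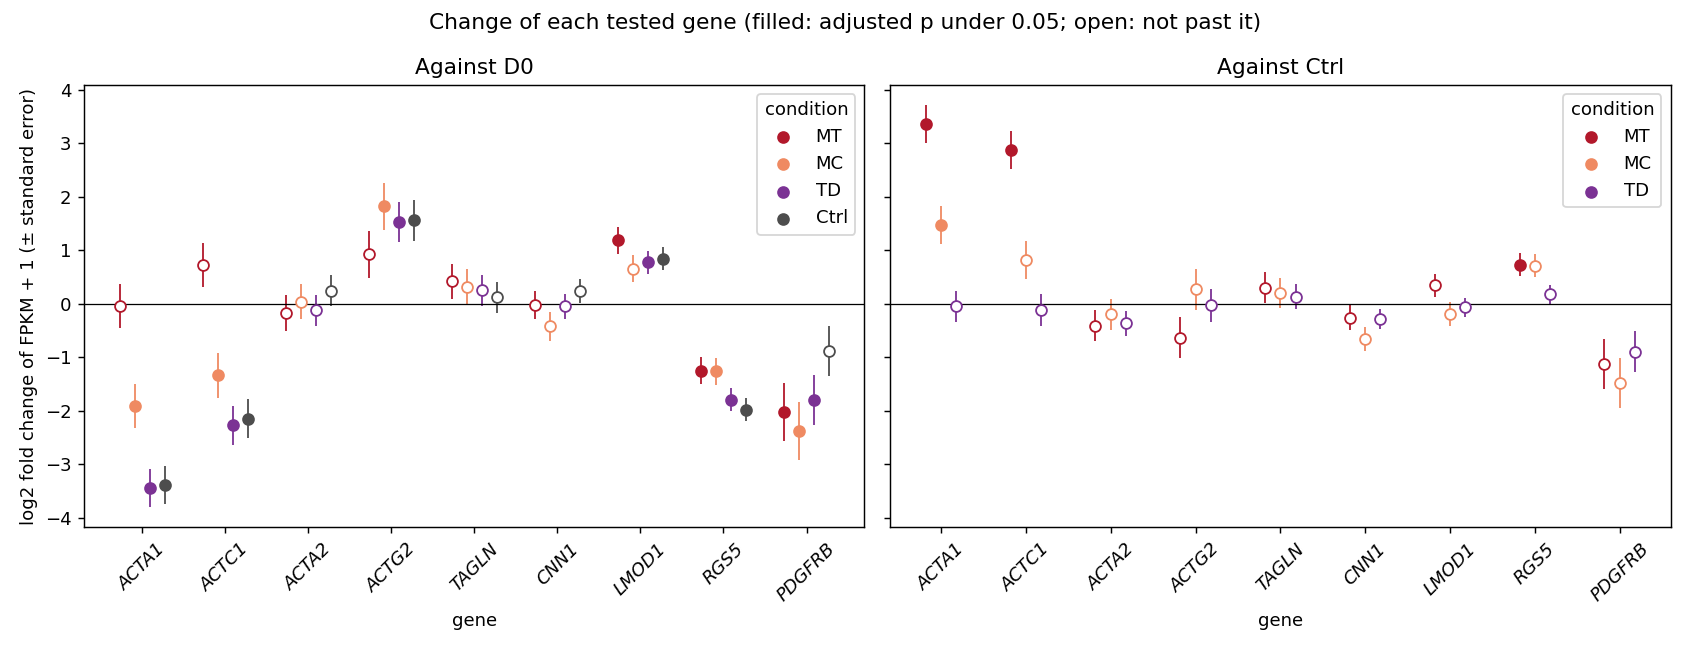
Log2 fold change (with standard error) of the 9 tested genes against D0 (left) and against Ctrl (right) for each condition, filled where the adjusted p of limma is under 0.05. ACTA1 and ACTC1 fall to -3.45 and -2.27 in TD and do not pass in MT, ACTA2, TAGLN and CNN1 have no filled point, and RGS5 is filled in all 4 conditions against D0.

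Related gene lists were set beside these genes. Counts of every list are against D0, where 9.38% of all tested genes were higher and 18.1% lower in MT. These shares were 6.34% and 11.3% in MC, 5.01% and 8.9% in TD and 3.5% and 4.95% in Ctrl. Of 9 tested genes of the striated thin filament and Z disc, 4 were lower in MT than in D0, 7 in MC, 7 in TD and 6 in Ctrl, and no gene of the list was called higher. The list's median log2 fold change was -0.58, -1.98, -2.80 and -2.83 in that order. TNNT2, cardiac troponin T, was lower by 3.71 in TD (adjusted p = 1.15e-06 from limma, a log2 fold change of -3.71) and higher in MT than in Ctrl by 3.92 (8.15e-06). In MT, leiomodin 2 (LMOD2), which lengthens cardiac thin filaments, was lower than in D0 (-2.73, adjusted p = 0.00136 from limma), as was the Z disc protein CSRP3 (-2.58, 0.00101), and both calls were lost with limma arrayWeights (0.072 and 0.0726). The cardiomyocyte list, used to check the tissue label, was summed over the 7 of its 12 markers that have an entry. It summed to 118 to 301 FPKM in MT, 29.3 to 41.9 in MC, 2.92 to 11.7 in TD, 5.89 to 10.9 in Ctrl and 380 to 460 in D0. MYL2, at 332 and 285 FPKM, made most of the sum in D0. All 7 were above 0 in D0, which is a weak check of the label, since RYR2 had only 0.170 and 0.137 FPKM. MYH7, the main ventricular myosin heavy chain of large mammals, was low in D0, at 1.31 and 1.32 FPKM, and ACTC1 was below ACTA1 in every library. MYH6, TTN, PLN, MB and TNNI3 were not analysed here.

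Of 14 tested genes of the smooth muscle apparatus, 1 was higher and 4 lower in MT than in D0, 1 and 2 in MC, 1 and 1 in TD and 3 and 2 in Ctrl. The list's median was -0.38 in MT, -0.27 in MC, -0.12 in TD and 0.13 in Ctrl. TPM2, beta-tropomyosin, was among those that rose in all 4, by 1.78 in MC (adjusted p = 0.00442 from limma) and by 1.23 in Ctrl (0.024). Its call in TD (1.77, 0.00161) held without any 1 library, while that in MC was lost without MC-2 (0.0594), that in MT (1.52, 0.0077) without D0-2 (0.0605) or MT-2 (0.0526), and that in Ctrl without D0-1 (0.144), D0-2 (0.237), Ctrl-3 (0.0631) or Ctrl-4 (0.0591). PDLIM7, a PDZ and LIM protein of actin filaments, was lower in TD (-1.25, adjusted p = 0.000493 from limma) and MC (-1.46, 0.000644), with no call lost without 1 library. Ctrl slices also had less PDLIM7 than D0 (-0.94, adjusted p = 0.00605 from limma). Its FPKM was 59.5 and 59.3 in the MT pair, under the 134 and 131 of the D0 pair.

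**Figure D5:**
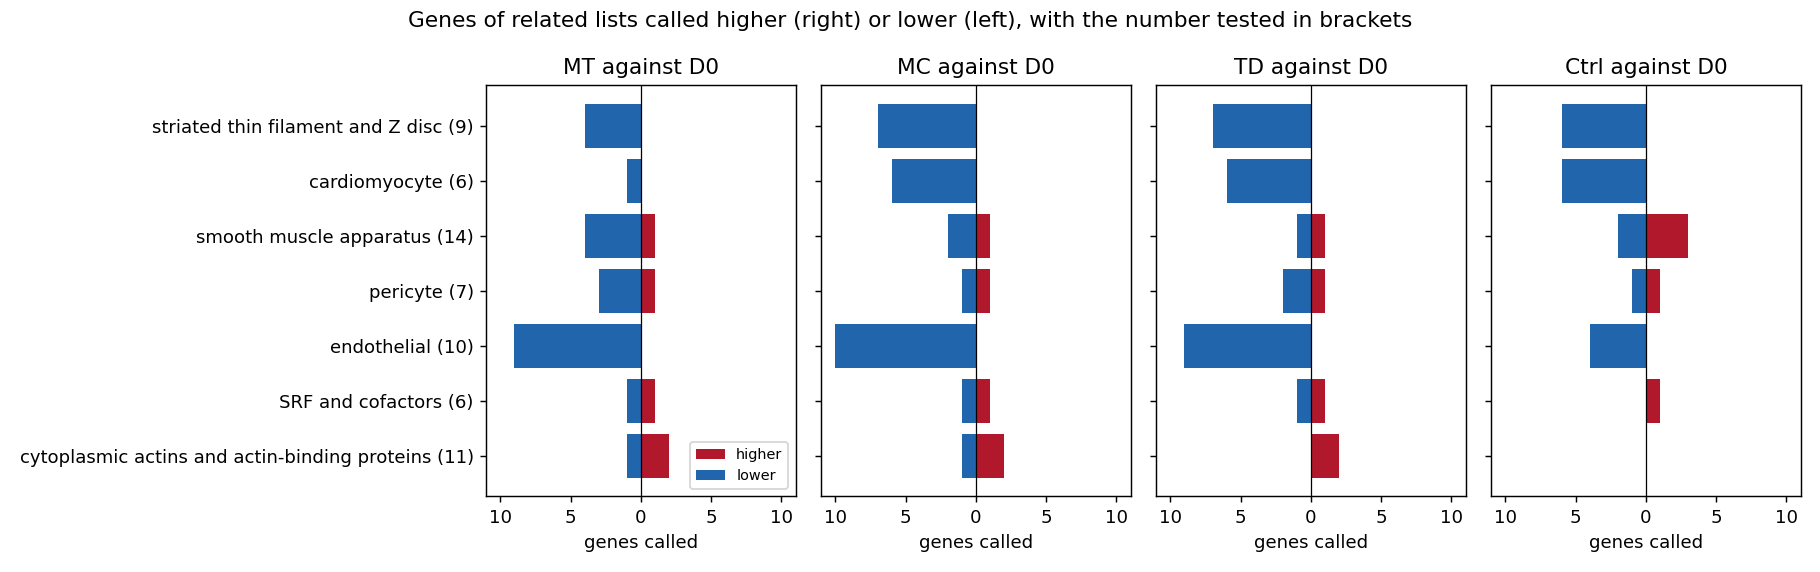
Number of genes of 7 lists called higher (right of 0) and lower (left of 0) than D0 at an adjusted p under 0.05, for MT, MC, TD and Ctrl, with the number tested in brackets. In MT 4 of 9 thin filament and Z disc genes and 1 of 6 cardiomyocyte genes are lower, and 9 of 10 endothelial genes are lower.

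Of SRF and its cofactors, 6 were tested and the median was -0.85 in MT, -0.53 in MC, -0.40 in TD and -0.25 in Ctrl against D0. KLF4, which represses smooth muscle genes, was the 1 gene called higher in each culture, by 1.69 in MT (adjusted p = 0.00276 from limma, and 0.0754 in a fit of MT and D0 alone), 1.81 in MC (0.00255), 1.94 in TD (0.000459) and 1.41 in Ctrl (0.0072, and 0.0898 without D0-1 or 0.0791 without D0-2). The coactivator MRTFA was lower in MT (-1.70, adjusted p = 0.0101 from limma) and MC (-1.76, 0.0124), and both calls were lost without D0-1 (0.065 and 0.0848), D0-2 (0.0544 and 0.0698) and the second library of each culture (MT-2 0.052, MC-2 0.126). MRTFA was also lower in TD, nearer to the threshold (-1.23, adjusted p = 0.0399 from limma). Of 11 tested cytoplasmic actins and actin-binding proteins, 2 were higher and 1 lower in MT and in MC, and 2 were higher in TD. In Ctrl limma called 0 of them, with 2 at an unadjusted p under 0.05.

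The lists of the vessel wall differed from one another. Of 7 pericyte markers, 1 was higher and 3 lower in MT than in D0, 1 and 1 in MC, 1 and 2 in TD and 1 and 1 in Ctrl. NDUFA4L2, a mitochondrial protein and pericyte marker, was the riser (1.57 in Ctrl, adjusted p = 0.000682 from limma), and the adhesion molecule MCAM was lower in MT (-2.22, adjusted p = 0.00119), MC (-2.54, 0.000705) and TD (-2.36, 0.000298). The pericyte list summed to 134 to 235 FPKM in MT, 158 to 245 in MC, 179 to 270 in TD, 178 to 205 in Ctrl and 147 to 167 in D0. COX4I2, a subunit of cytochrome oxidase, was the most abundant of these markers in every library, with 85.3 and 183 FPKM in MT, 97.4 and 180.0 in MC, 89.8 to 200.5 in TD, 93.3 to 137 in Ctrl and 70.5 and 62.3 in D0, so the sum mostly follows that gene. MCAM had 11.2 and 7.06 FPKM in MT and 47.4 and 43.1 in D0. Of 10 endothelial markers, 9 were lower in MT, 10 in MC, 9 in TD and 4 in Ctrl, and their sum was 184 in MT, 113 to 125 in MC, 92.5 to 153 in TD, 252 to 341 in Ctrl and 405 to 476 in D0. PDGFB, the ligand of PDGFRB made by endothelial cells, was lower by 2.44 in MT (adjusted p = 3.47e-05 from limma, a log2 fold change of -2.44), and its values in MC, TD and Ctrl were -2.24, -2.13 and -1.34 (adjusted p 8.08e-05, 2.66e-05 and 0.00178), with no call lost without 1 library. PDGFC rose in all 4 (1.06 to 1.28, adjusted p 0.000133 to 0.00113 from limma). PDGFA was lower in MC (-0.94, adjusted p = 0.0376 from limma), TD (-1.21, 0.0045) and Ctrl (-1.23, 0.00607) and was not called in MT. It was higher in MT than in Ctrl (0.90, adjusted p = 0.0211 from limma). The fibroblast list summed to 3303 to 3513 FPKM in MT, 3099.6 to 3238 in MC, 2936 to 4556 in TD, 2911 to 5792 in Ctrl and 4853 to 5463 in D0, and its part in the levels of ACTA2 and TAGLN was not tested. COL1A1, COL1A2 and COL3A1 were its most abundant genes in D0, so the sum leans on collagens. Of its 9 tested genes, 2 were higher and 2 lower in MT than in D0, 2 and 4 in MC, 1 and 3 in TD and 1 and 2 in Ctrl. DCN rose in all 4 (0.98 to 1.41, adjusted p 0.00361 to 0.0274 from limma), and TCF21 fell in all 4. COL1A1 was lower in MT (-2.49, 0.0217) and MC (-2.31, 0.0423).

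Over the 14 libraries, the genes whose level was most like that of ACTC1 were PCP4 (Pearson r = 0.957), ACTA1 (0.955), TNNT2 (0.933), TNNC1 (0.930) and COX3 (0.924). Those most like ACTA2 were RSU1 (0.863), FTL (0.835), TPI1 (0.816), NDFIP1 (0.807) and FLOT1 (0.799), and none of the other 9 genes was among them, the nearest being CNN1 at 0.708. ACTC1 and ACTA2 had r = -0.12, and RGS5 had 0.84 with ACTA1. Those most like MYH11 were SEPTIN5 (0.901), ILKAP (0.890), RFFL (0.885), TINAGL1 (0.881) and BOK (0.876). These are descriptions over libraries of 5 conditions. The depth of MC-2 and MT-2 was 0.470 and 0.499 of that of D0-1, and of the other libraries 0.738 to 1.20.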

How the data were processed

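RNA of 14 pig heart slice libraries was measured by RNAseq. The authors called bases with CASAVA, used HISAT2 for alignment on Sscrofa11.1, and deposited FPKM for 13644 genes. The sources used here give no tool versions, counting tool or annotation release. For RNA extraction, the labels name another cell source and library kit than the study's methods. The authors state DESeq2, which needs counts and was not run.

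Deposited FPKM were put on the log2(FPKM + 1) scale. Genes needed 1 FPKM or more in 2 or more libraries, which left 11527. In limma 3.58.1 (R 4.3.3), a fit of all 14 libraries estimated a mean for each condition, followed by eBayes with a trend (prior degrees of freedom 3.883) and Benjamini-Hochberg adjustment over all genes and a threshold of 0.05. Fold changes on this scale understate changes of low genes. The 10 genes and all lists were chosen with earlier results of these data known. From each list and comparison, the 2 largest rises and falls among called genes could be named, and other list genes named were chosen after their values were seen. Likeness to ACTC1, ACTA2 and MYH11 was ranked by Pearson r.

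Relative depth was solved from the steps of FPKM that 1 read makes, and whole reads could be solved for 11782 genes. Absolute depth is unknown, and the reads given are the smallest whole numbers that match. Long genes had over 150 and short genes under 50 reads per FPKM in D0-1. Gene starts and windows came from RefSeq on Sscrofa11.1, matched by symbol for 10 of 10 genes. The fit was tested on simulated data. Alternatives were another pseudocount, filters, scalings, weights, a replicate block, covariates, the groups compared alone, and each library left out. Python 3.11.15, numpy 2.4.6, pandas 2.3.3, pysam 0.24.0, biopython 1.88 and matplotlib 3.10.9 were used.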

Additional observations from a re-analysis of the deposited data

Results flagged for a closer look

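The T3/Dex difference of both striated actins was larger in the CTCM than in static culture by the interaction term of limma, and neither call was stable. It was 1.93 for ACTA1 (adjusted p = 0.048) and 2.18 for ACTC1 (adjusted p = 0.0302) on the log2 scale, and both MT libraries were above both MC libraries for both genes, while the TD and Ctrl libraries overlapped. The adjusted p stayed under 0.05 in 5 of 25 alternatives for ACTA1 and in 14 of 25 for ACTC1. Without MC-1 the values were 1.32 (adjusted p = 0.186) and 1.28 (0.056), and without MC-2 they were 2.54 and 3.08.

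Apart from this, of the 20 groups of 4 libraries (10 genes in TD and in Ctrl), 0 held a library whose gap to the next passed Dixon's 95% critical value, which chance passes in about 1 of 20 groups. The pairs of MT, MC and D0, on which the interaction and the comparisons with D0 rest, are too small for this check.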

How the results depend on the processing

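Of the 29 calls among 90 results of the 9 tested genes, 7 held under every alternative run for them (26 in all): ACTA1 lower than D0 in Ctrl and TD and higher in MT than in Ctrl, ACTC1 lower in TD, and RGS5 lower in Ctrl, TD and MC. No result reversed. Without 1 library the number of genes called against D0 was 2 to 4 for MT, 1 to 5 for MC, 3 to 6 for TD and 2 to 5 for Ctrl. It was 0 to 3 in MC and 2 to 4 in MT against Ctrl, 2 to 3 in MT against TD, 0 to 3 in MT against MC, 0 to 3 for the interaction and 0 in TD against Ctrl. With arrayWeights it was 0 in MT against D0, TD and MC and for the interaction, 1 in TD against Ctrl, 3 in MC against Ctrl and 1 in MT against Ctrl, and with a single weight per condition 0 in MT against D0, TD and MC and for the interaction and 1 in MT against Ctrl. These weights also moved all genes: with arrayWeights the share called was 7.83% in MT against D0, 0.174% against TD, 0.00868% against MC, 0.521% against Ctrl and 0.252% for the interaction, where equal weights gave 27.5%, 10.1%, 3.19%, 23.1% and 4.67%, while in Ctrl against D0 it was 41.4%, where equal weights gave 8.45%. With a single weight per condition it was 7.37% in MT against D0, 0.104% against TD and 0.00868% against MC. It was 0.494% against Ctrl and 0.269% for the interaction. Against MC, MT had 0 at a pseudocount of 0.1 (4.57% of all genes called), at a filter of 5 FPKM (0.873%) and with the groups alone (0%). It had 1 with quantile normalization (1.57%). The interaction count was 0 at a pseudocount of 0.1 (5.61% of all genes) and at 5 FPKM (3.37%). It was 1 with no filter (4.95%), TPM (3%), quantile normalization (4.5%) or the groups alone (3.29%). MC against Ctrl had 2 with TPM (5.19% of all genes) and 3 with the groups alone (17.8%). With the summed FPKM as a covariate TD against Ctrl had 1 (4.21% of all genes). With the long and short gene balance TD against Ctrl had 1 (4.86%), MC against Ctrl 4 (17.2%) and MT against Ctrl 5 (35.9%). Settings with covariates, a weight per condition or without MC and MT were chosen after seeing the data. With a replicate block MC against Ctrl had 0 (2.41% of all genes), MT against MC 1 (1.67%) and the interaction 0 (2.65%). Also lost were the calls against D0 of LMOD1 in Ctrl (adjusted p = 0.174 from limma) and TD (0.164) and of ACTC1 in MC (0.0871). That of RGS5 in MT against Ctrl (0.127) was lost too. The labels do not say that replicate numbers pair the samples. Over Ctrl and TD, which share 4 numbers, same-numbered libraries had correlations of deviations of -0.323, -0.5, 0.414 and -0.0158, so the block is given as an alternative. The other groups share 2 numbers, with 0.405 and 0.35 for MC and Ctrl, 0.169 and 0.104 for MT and Ctrl, 0.169 for both pairs of MT and MC, -0.254 and -0.492 for MC and TD, -0.0715 and -0.176 for MT and TD and -0.0644 to 0.0791 for pairs with D0, so a pairing of MC and MT with Ctrl cannot be settled from these data. The median of all genes in MT against D0 was -0.11, -0.48 after rescaling to TPM and 0.05 after quantile normalization, with 34.1%, 16.3% and 51.7% of calls higher. The causes were not tested. Few reads limit ACTC1 (1 to 10 reads in static libraries) and MYH11 most, and LMOD1 had 39 and 24 reads in D0.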

Other observations

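Myocardin, MYOCD, the SRF coactivator of cardiac and smooth muscle, did not pass the filter and was looked at after its values were seen. It had 0.954 and 1.44 FPKM in MT, 0.233 and 0.137 in MC, 0.413, 0.214, 0.411 and 0.222 in TD, 0, 0.0388, 0 and 0.0484 in Ctrl and 0.204 and 0.130 in D0. The MT libraries were above all others, and every TD library was above every Ctrl library. It was not tested with the other genes.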
